A study of Homo sapiens with 4 samples.

Results

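The genes described here build the sugar chain that cells attach to asparagine residues of secreted and membrane proteins, together with the genes that make its sugar donors. They are 33 genes chosen by symbol from the 20515 rows of a count table, and all 33 symbols matched 1 row each. The table holds poly(A) RNA sequencing counts of T47D, a human cell line from a luminal breast carcinoma. It covers 2 libraries of cells treated with baicalein and 2 control libraries whose treatment is labelled none. Baicalein is a plant flavone known as an inhibitor of lipoxygenases. The labels state no dose, duration or vehicle, and do not say whether the 2 libraries of a group come from separate cultures. The p-values therefore measure the spread between these libraries, which may be technical, and all results come from 1 cell line.

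N-glycosylation starts on the membrane of the endoplasmic reticulum. Enzymes named ALG add N-acetylglucosamine and mannose to the lipid dolichol on the cytosolic side, the chain is flipped, and further ALG enzymes add mannose and glucose on the lumenal side. The oligosaccharyltransferase complex moves the finished chain onto nascent protein, and glucosidases then trim it, which lets the chaperones calnexin and calreticulin bind. The hexosamine pathway supplies UDP-N-acetylglucosamine (UDP-GlcNAc), and in mouse its entry enzyme is known as a target of XBP1, a transcription factor of the unfolded protein response.

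Total counts were 56732569 and 38597207 in baicalein 1 and 2, and 45341857 and 45618604 in control 1 and 2. Levels are given as CPM, counts scaled to library size with TMM factors, so that 1 CPM stood for 37.2 to 54.7 counts. Of 8 luminal epithelial markers all were present, and 7 of them were lower in both baicalein libraries than in both control libraries. The exception was EPCAM, at 173 and 174 CPM in baicalein libraries, against 167 and 157 CPM in control libraries. The keratin gene KRT8 was at 2179 and 2269 CPM after baicalein, against 4809 and 5521 CPM in controls, and the luminal transcription factor gene GATA3 at 414 and 372 CPM after baicalein, against 1062 and 1134 CPM in controls. The hormone receptor genes ESR1 and PGR were at 37.8 to 39.2 and 106 to 113 CPM after baicalein, against 171 to 183 and 894 to 927 CPM in controls. The part of this marker shift in the results below was not tested. Of 9 markers of blood, fibroblast, endothelial and basal cells, 6 were not in the table and were not analysed here. They were COL3A1 and DCN of fibroblasts, PECAM1 and VWF of endothelium, and KRT5 and KRT14 of basal cells. PTPRC, the leukocyte marker, had 5 and 6 counts in baicalein libraries and 0 and 0 counts in control libraries, and CD68 stayed below 0.4 CPM in all 4. The fibroblast collagen gene COL1A1 was at 150 and 140 CPM in baicalein libraries, against 90.03 and 100.4 CPM in control libraries; its part in the results below was not tested. In bulk RNA, a change in the mix of cells and a change of RNA per cell cannot be told apart.

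Promoter sequences were searched for known stress response elements. RefSeq promoter windows, from 250 bases before to 50 bases after the gene start, were found for 29 of the 33 genes; ALG10, STT3B, RPN1 and MOGS had no entry. The endoplasmic reticulum stress element, searched on both strands as CCAAT and CCACG with 9 bases of any kind between them, was present in 22 of 27305 windows (0.0806%) and in the window of 1 member, ALG12. It is shown because that window is also the promoter of CRELD2, an endoplasmic reticulum stress gene on the other strand: the 2 windows share 295 of 300 bases (chr22:49918389-49918683, GRCh38.p14). The 250 bases before the start of ALG12 (chr22:49918439-49918688, minus strand, GRCh38.p14, RefSeq) read as follows, with the element in capitals.
ALG12: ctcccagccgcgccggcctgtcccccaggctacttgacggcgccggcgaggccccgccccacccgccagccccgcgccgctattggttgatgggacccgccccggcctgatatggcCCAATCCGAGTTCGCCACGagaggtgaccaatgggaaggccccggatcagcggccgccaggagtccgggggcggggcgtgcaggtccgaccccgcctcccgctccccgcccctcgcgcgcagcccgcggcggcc
The GFPT1 promoter is shown because this gene had the largest rise of the members. Its 250 bases before the start (chr2:69387228-69387477, minus strand, GRCh38.p14, RefSeq) carry 3 copies of GCGTG, the core of the dioxin response element bound by the aryl hydrocarbon receptor, given in capitals.
GFPT1: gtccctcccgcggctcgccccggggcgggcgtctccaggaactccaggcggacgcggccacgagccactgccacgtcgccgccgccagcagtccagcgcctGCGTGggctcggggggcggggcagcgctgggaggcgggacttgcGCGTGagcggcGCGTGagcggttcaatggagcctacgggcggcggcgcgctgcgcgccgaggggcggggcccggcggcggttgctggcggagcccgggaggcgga
At least 1 copy of GCGTG on either strand occurred in 9919 of all windows (36.3%) and in 20 of the 29 member windows. Among these were windows of genes that rose (GFPT1, PGM3, PMM2, OSTC) and of genes that fell (MPDU1, ALG6, ALG8). The share of all windows with 3 copies was not counted. The second form of the endoplasmic reticulum stress element (ATTGG and CCACG with 1 base between them), the unfolded protein response element core TGACGTGG and the C/EBP-ATF element TGATGNAA were in 0 of the 29 windows, against 0.0549%, 0.795% and 3.67% of all windows. TGACNNNGC, the core of the antioxidant response element, was in 6 of the 29 and in 13.6% of all. These matches describe letters only.

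After baicalein, GFPT1, an entry enzyme of hexosamine synthesis, and the 7 listed oligosaccharyltransferase genes were higher, and the 3 enzymes that add the terminal glucoses were lower. Outside the set, the second entry isozyme GFPT2 was lower, and of 5 other transferase subunits 3 were higher and 2 lower. By the quasi-likelihood F test of edgeR, with p-values adjusted by Benjamini-Hochberg over 18369 genes and a threshold of 0.05, 20 of the 33 members rose, 9 fell and 4 did not pass. The share called among all tested genes was 37.4% higher and 37.6% lower, 75.0% in all. Calls of at least 2-fold were made for 5 members upward and 2 downward, against 12.2% and 15.2% of all tested genes. The median log2 fold change of the members was 0.21, and that of all tested genes was 0.00. All 33 passed the filter on low counts, and for all 33 the 2 baicalein libraries lay on 1 side of both controls in CPM, as they did for 86.9% of all tested genes. Tested against a 1.5-fold change, 6 of the 33 were called higher and 4 lower, against 16.8% and 19.5% of all tested genes. Counts of the 33 genes made up 0.448% and 0.451% of all counts in baicalein 1 and 2, against 0.370% and 0.372% in control 1 and 2.

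**Figure D1:**
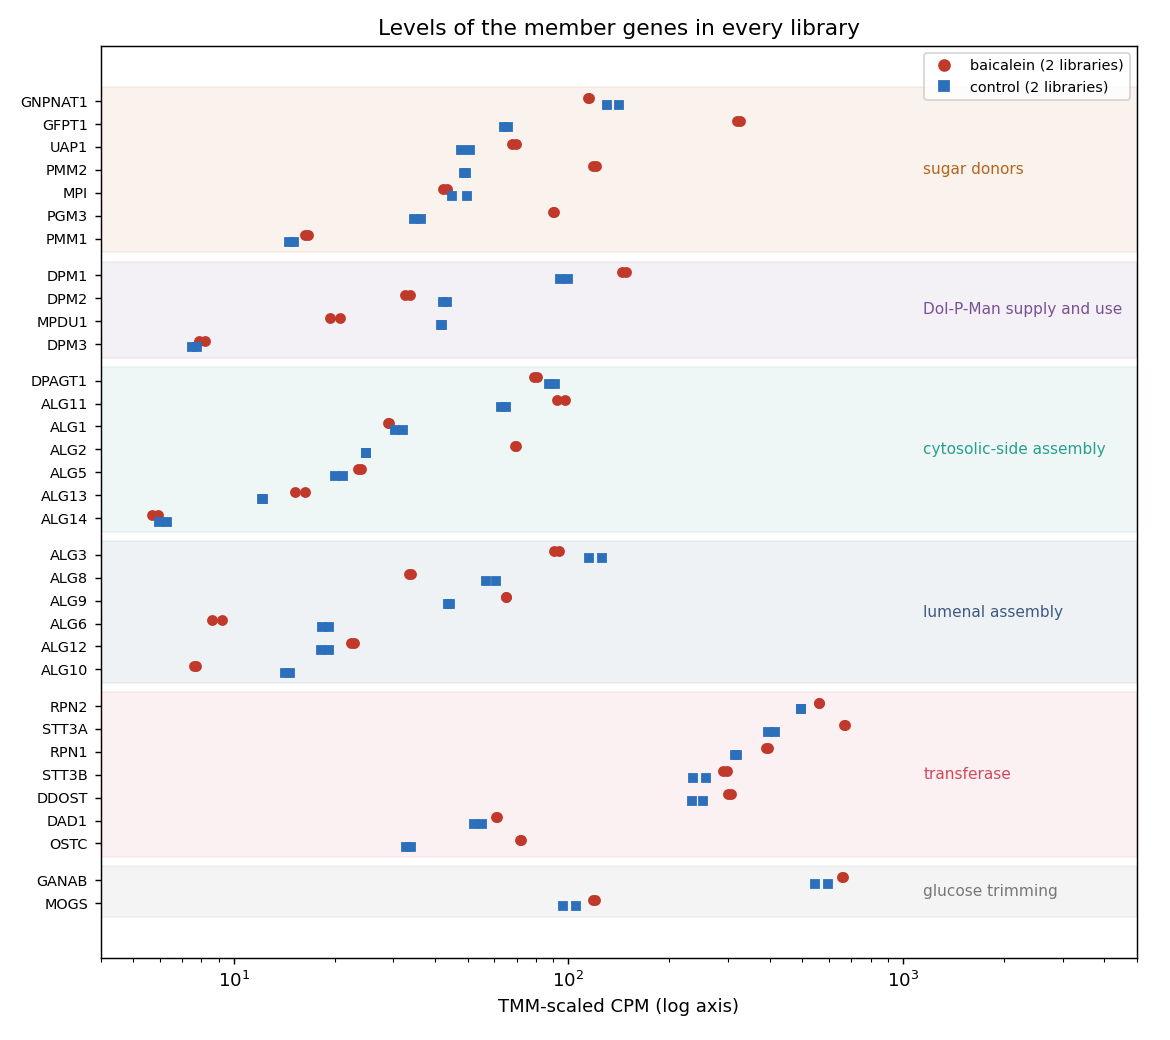
Levels of the 33 genes in every library as TMM-scaled CPM on a log axis, 1 point per library, grouped by step (Dol-P-Man is dolichol phosphate mannose). GFPT1 shows the widest gap, at 319 and 327 CPM in baicalein libraries, against 65.8 and 64.2 CPM in control libraries.

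Of the 7 genes that make sugar donors, 4 rose, 2 fell and 1 did not pass. The shares among all tested genes were 37.4% higher and 37.6% lower. GFPT1 (ENSG00000198380, chromosome 2, positions 69319769 to 69387254 of GRCh38), the rate-limiting entry enzyme that converts fructose 6-phosphate to glucosamine 6-phosphate, had 319 and 327 CPM in baicalein 1 and 2, against 65.8 and 64.2 CPM in control 1 and 2. Its 4.97-fold rise (log2 fold change 2.31, SE 0.05, adjusted p = 1.88e-21) was the largest of the members. PGM3 (ENSG00000013375, chromosome 6, positions 83161150 to 83193936), which isomerises N-acetylglucosamine phosphate, had 90.57 and 89.999 CPM after baicalein, against 36.2 and 34.5 CPM in controls. This was a 2.56-fold rise (log2 fold change 1.35, SE 0.05, adjusted p = 8.44e-17). Of PGM3's exon bases 14.8% overlap those of DOP1A on the opposite strand, which had 16.7 CPM after baicalein and 17.0 CPM in controls on average. UAP1, which makes UDP-GlcNAc in the final step, rose 1.39-fold, to 68.8 ± 1.66 CPM in baicalein libraries, against 49.4 ± 2.16 CPM in control libraries (SD, n = 2 each, as for all such values). The acetyltransferase gene GNPNAT1, between GFPT1 and PGM3 in the pathway, went the other way: it had 115.1 and 114.4 CPM after baicalein and 142 and 131 CPM in controls (log2 fold change -0.25, SE 0.05, adjusted p = 3.83e-05). Of GNPNAT1's exon bases 35.6% overlap the antisense gene AL139317.3 on the opposite strand, which was not analysed here. The 4 genes of this linear pathway thus had fold changes from 0.841 to 4.97.

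PMM2 (ENSG00000140650, chromosome 16, positions 8788823 to 8849331) codes for the phosphomannomutase whose loss causes the most common congenital disorder of glycosylation. It had 121 and 118 CPM in baicalein 1 and 2, against 49.5 and 48.9 CPM in control 1 and 2, a 2.43-fold rise (log2 fold change 1.28, SE 0.04, adjusted p = 4.19e-17). Its isozyme gene PMM1 was at 16.5 ± 0.255 CPM after baicalein and 14.9 ± 0.334 CPM in controls and did not pass (log2 fold change 0.15, adjusted p = 0.0744). The ratio of PMM2 to PMM1 counts within a library, which does not depend on scaling, was 7.24 and 7.27 after baicalein and 3.38 and 3.23 in controls. Of PMM2's exon bases 16.0% lie in AC022167.2 on the same strand, a gene not analysed here. MPI, which makes mannose 6-phosphate from fructose 6-phosphate, was slightly lower, with a log2 fold change of -0.15 (adjusted p = 0.0209). The call of MPI was lost in DESeq2 (adjusted p = 0.0846) and without control 2 (0.191), baicalein 1 (0.199) or baicalein 2 (0.0943). Of its exon bases 24.6% overlap those of FAM219B on the opposite strand, which had a log2 fold change of 0.28. No source used here states whether reads were assigned by strand, so reads of such pairs cannot be told apart.

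Dolichol phosphate mannose, the lumenal mannose donor, is made by DPM1 with the help of DPM2 and DPM3, and MPDU1 is needed for its use. The catalytic subunit gene DPM1 rose 1.51-fold, with 148 and 145 CPM in baicalein libraries and 99.98 and 94.6 CPM in control libraries. DPM2, a regulatory subunit, fell to 33.1 ± 0.683 CPM after baicalein, against 42.8 ± 0.715 CPM in controls (log2 fold change -0.37, SE 0.05, adjusted p = 1.44e-06); 19.2% of its exon bases overlap the antisense gene AL157935.1, at 5.22 CPM after baicalein and 1.53 CPM in controls. DPM3, the membrane tether, did not pass, at 8.04 ± 0.243 CPM after baicalein and 7.64 ± 0.205 CPM in controls (adjusted p = 0.462). The DPM1 to DPM2 count ratio was 4.42 and 4.44 in baicalein libraries, against 2.31 and 2.24 in control libraries. MPDU1 (ENSG00000129255, chromosome 17, positions 7583529 to 7592789) had 19.4 and 20.7 CPM after baicalein and 41.8 and 41.6 CPM in controls. It was 2.08-fold lower (log2 fold change -1.06, SE 0.06, adjusted p = 1.53e-13). Its exons share 5.9% of their bases with FXR2 on the opposite strand, which had a log2 fold change of 0.18. They share 4.7% with the antisense gene AC016876.1, which fell (log2 fold change -0.39), with 10.7 CPM after baicalein and 14.0 CPM in controls.

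**Figure D2:**
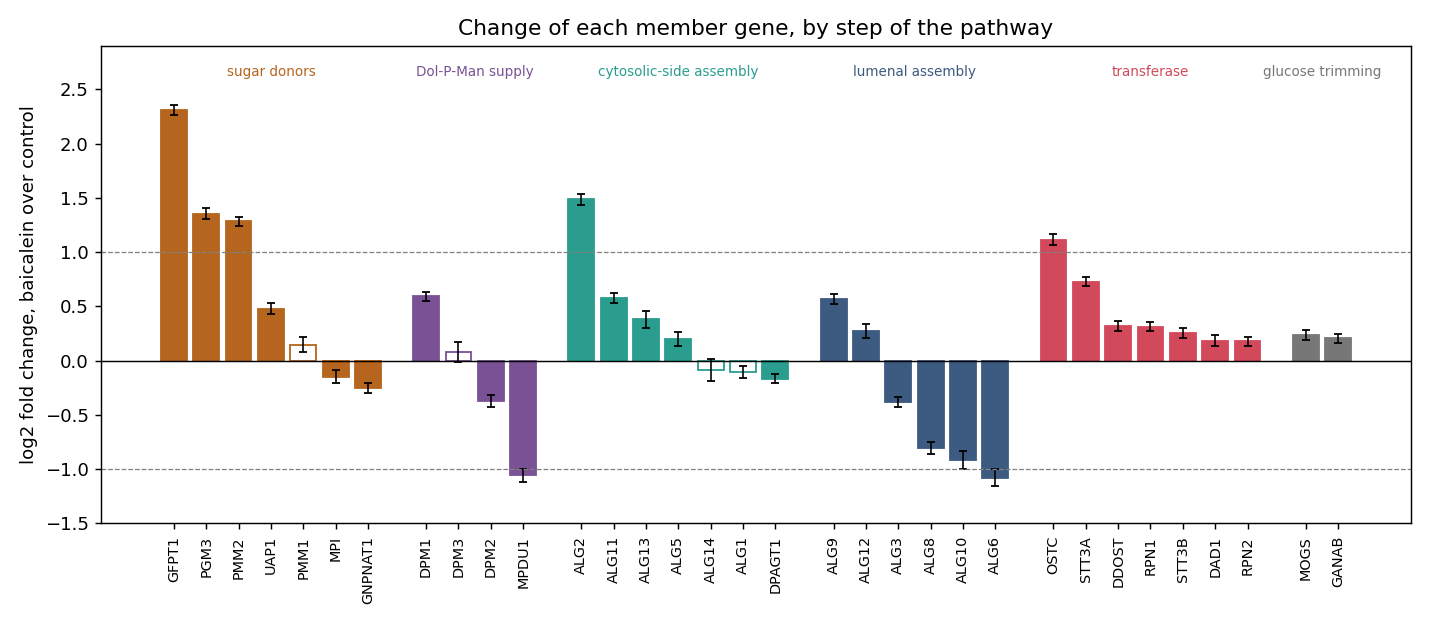
Log2 fold change of baicalein over control for each gene by pathway step, with the standard error as whiskers; filled bars passed an adjusted p of 0.05, open bars did not, and dashed lines mark a 2-fold change. All 7 bars of the oligosaccharyltransferase are above 0, whereas ALG3, ALG8, ALG10 and ALG6 of the lumenal steps are below.

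On the cytosolic side, 4 of 7 genes rose, 1 fell and 2 did not pass. The shares among all tested genes were 37.4% higher and 37.6% lower. ALG2 (ENSG00000119523, chromosome 9, positions 99216426 to 99221956), a mannosyltransferase that extends the first mannose, had 69.0 and 69.5 CPM in baicalein 1 and 2, against 24.7 and 24.8 CPM in control 1 and 2. Its rise was 2.80-fold (log2 fold change 1.48, SE 0.05, adjusted p = 4.12e-17), the second largest of the members. ALG11, which adds the last mannoses on this side, rose 1.49-fold; 39.7% of its exon bases lie in UTP14C on the same strand, a gene not analysed here. DPAGT1, the enzyme of the first committed step and the target of tunicamycin, had 80.8 and 78.7 CPM after baicalein and 87.7 and 91.5 CPM in controls (log2 fold change -0.17, SE 0.04, adjusted p = 0.00204). Its call was lost without baicalein 2 (adjusted p = 0.0982), and 21.3% of its exon bases overlap those of C2CD2L on the opposite strand, which fell by 0.82 on the log2 scale. ALG13 and ALG14 code for the transferase that adds the second N-acetylglucosamine. ALG13, its catalytic subunit, rose to 15.8 ± 0.743 CPM after baicalein, against 12.2 ± 0.0501 CPM in controls, and ALG14, the membrane anchor, did not pass, at 5.81 ± 0.175 CPM after baicalein and 6.15 ± 0.2499 CPM in controls. ALG1, which adds the first mannose, did not pass either (log2 fold change -0.11, adjusted p = 0.0998), although it was called lower with upper quartile scaling (adjusted p = 0.034), with library totals alone (0.00257) and without control 1 (0.0155). Of its exon bases 20.1% overlap those of EEF2KMT on the opposite strand, which had a log2 fold change of -0.08. ALG5, which makes the glucose donor dolichol phosphate glucose, rose 1.15-fold (adjusted p = 0.00775), a call lost with library totals alone and without baicalein 2 (adjusted p = 0.185 and 0.0588).

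Of the 6 lumenal assembly genes, 2 rose and 4 fell, against 37.4% called higher and 37.6% lower among all tested genes. ALG6, ALG8 and ALG10 add the terminal glucoses in that order, and all 3 fell. By log2 fold change they lay above 14.1%, 19.6% and 17.1% of tested genes. ALG6 (ENSG00000088035, chromosome 1, positions 63367575 to 63438562) had 8.63 and 9.21 CPM in baicalein libraries, against 19.3 and 18.3 CPM in control libraries, and was 2.11-fold lower (log2 fold change -1.08, SE 0.08, adjusted p = 3.65e-11). ALG8 had 33.4 and 33.8 CPM after baicalein and 60.8 and 56.6 CPM in controls, 1.75-fold lower. ALG10's exons overlap the antisense gene AC046130.1, which was not tested, over 42.2% of their bases. For ALG10 the values were 7.72 and 7.60 CPM after baicalein and 14.7 and 14.2 CPM in controls, 1.89-fold lower. ALG10 has a near-identical paralog, ALG10B, so the split of reads between them is uncertain; ALG10B was 1.43-fold lower, and their summed level was 38.3 and 37.3 CPM in baicalein libraries, against 59.3 and 55.8 CPM in control libraries. Among the lumenal mannosyltransferases, ALG3, which adds the first lumenal mannose, fell to 92.2 ± 2.34 CPM after baicalein, against 120.4 ± 7.30 CPM in controls. ALG9, which acts at 2 later steps, rose 1.48-fold, to 65.1 ± 0.213 CPM in baicalein libraries, against 44.0 ± 0.516 CPM in control libraries; 24.4% of its exon bases are shared with the readthrough gene AP001781.2. ALG12, which acts between them, rose 1.21-fold (log2 fold change 0.27, SE 0.07, adjusted p = 0.000848), with 22.4 and 22.9 CPM after baicalein and 18.2 and 19.2 CPM in controls. CRELD2, which shares its promoter window, rose as well, with 107 and 111 CPM after baicalein and 61.4 and 64.1 CPM in controls (log2 fold change 0.80, adjusted p = 3.13e-13). Exons of these 2 genes share 168 bases, 3.1% of the exon bases of ALG12. Of ALG12's exon bases 39.0% also overlap the long non-coding gene AL671710.1, at 2.42 CPM after baicalein and 3.16 CPM in controls.

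All 7 oligosaccharyltransferase genes of the set rose, with fold changes from 1.13 to 2.17, while 37.4% of all tested genes were called higher. By log2 fold change, RPN2, DAD1, STT3B, RPN1 and DDOST lay above 59.1% to 65.9% of tested genes, STT3A above 81.1% and OSTC above 89.4%. OSTC (ENSG00000198856, chromosome 4, positions 108650584 to 108667820), a small subunit that links the STT3A complex to the translocon, had 71.9 and 72.3 CPM in baicalein 1 and 2, against 33.8 and 32.8 CPM in control 1 and 2. Its rise was 2.17-fold (log2 fold change 1.12, SE 0.05, adjusted p = 4e-15). STT3A, the catalytic subunit that acts during translocation, rose 1.65-fold, with 666 and 671 CPM in baicalein libraries and 395 and 414 CPM in control libraries. STT3B, the catalytic subunit of the other complex form, which also acts after translation, rose 1.19-fold, with 290.3 and 297 CPM after baicalein and 258 and 236 CPM in controls. The STT3A to STT3B count ratio was 2.29 and 2.26 in baicalein libraries, against 1.53 and 1.75 in control libraries. With 2 libraries a group no exact test of such a ratio can pass, and none was made. The scaffold subunit genes RPN1, RPN2 and DDOST rose 1.24-fold, 1.13-fold and 1.25-fold, and DAD1, a small subunit, 1.13-fold. Of DDOST's exon bases 15.7% lie in PINK1-AS on the same strand, at 3.06 CPM after baicalein and 1.70 CPM in controls. The RPN1 to RPN2 ratio was 0.696 and 0.705 after baicalein and 0.635 and 0.643 in controls. The calls of RPN2 and DAD1 were lost with library totals alone (adjusted p = 0.0896 and 0.172).

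Further subunits of the transferase came from a companion list of other pathway genes. KRTCAP2, which belongs to the STT3A complex like OSTC, rose (log2 fold change 0.27), to 57.8 ± 0.409 CPM after baicalein, against 48.0 ± 0.457 CPM in controls. Of KRTCAP2's exon bases 18.4% lie in AL713999.1 on the same strand, a gene that was not tested. MAGT1 and TUSC3 code for alternative oxidoreductase subunits of the STT3B complex. MAGT1 rose 1.24-fold, with 87.5 and 92.2 CPM in baicalein libraries and 74.5 and 70.1 CPM in control libraries, whereas TUSC3 fell, with 67.8 and 69.8 CPM after baicalein and 100.6 and 92.1 CPM in controls (log2 fold change -0.49, SE 0.05, adjusted p = 5.63e-09). Of the small shared subunits, TMEM258 rose 1.56-fold and OST4 had a log2 fold change of -0.17 (adjusted p = 0.0307). OST4's call was lost in DESeq2 (adjusted p = 0.128) and without control 2 (0.43), baicalein 1 (0.0799) or baicalein 2 (0.176).

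Both glucosidase genes rose slightly, while 37.4% of all tested genes were called higher. MOGS, which removes the outermost glucose, was at 119 ± 1.41 CPM after baicalein and 101 ± 6.35 CPM in controls, and GANAB, the catalytic subunit of the next glucosidase, at 658 ± 2.24 CPM after baicalein and 571 ± 33.6 CPM in controls. Their log2 fold changes were 0.24 and 0.21 (SE 0.05 and 0.04). PRKCSH, the other subunit of that glucosidase, fell to 248.9 ± 2.42 CPM in baicalein libraries, against 334 ± 22.6 CPM in control libraries (log2 fold change -0.43, SE 0.05, adjusted p = 2.88e-08).

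**Figure D3:**
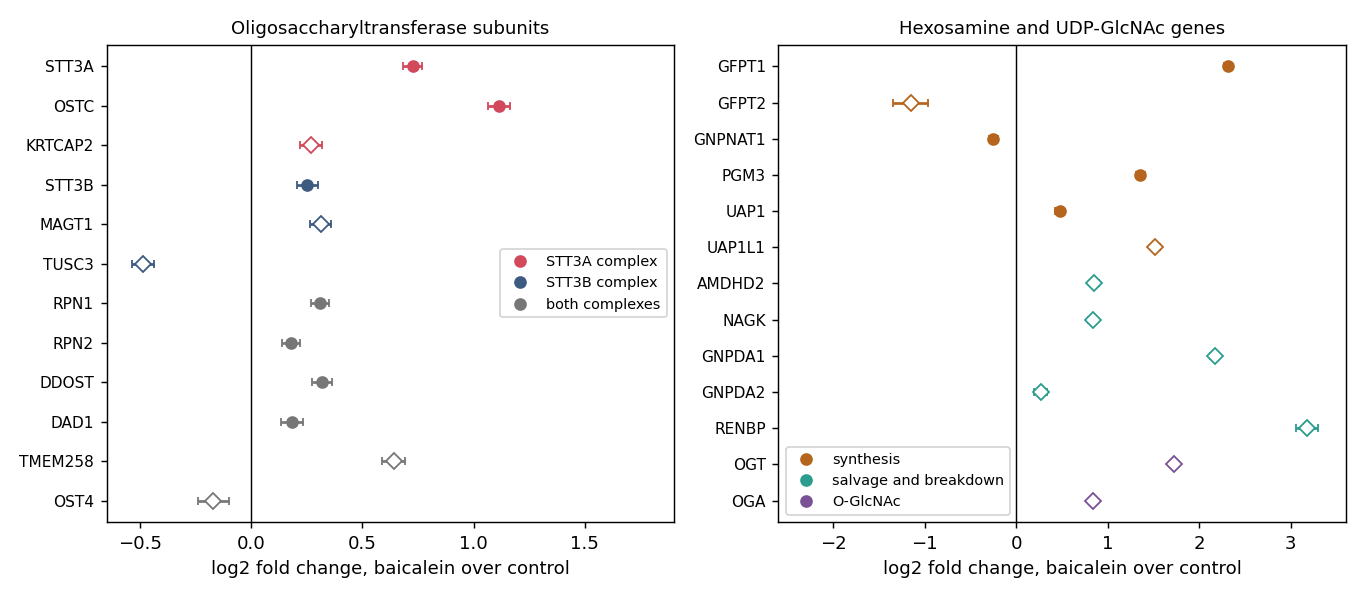
Log2 fold change of baicalein over control with its standard error for oligosaccharyltransferase subunits (left) and hexosamine and UDP-GlcNAc genes (right); filled circles are members and open diamonds are companion genes. TUSC3 and OST4 are the subunits below 0 on the left, and GFPT2 and GNPNAT1 the genes below 0 on the right.

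Compared per length, as CPM per kilobase of union exon length, the transferase subunits were among the most abundant members. RPN2 led in both groups, with 199 ± 0.447 after baicalein and 176 ± 0.265 in controls, followed by GANAB with 131 ± 0.445 after baicalein and 114 ± 6.68 in controls. ALG14 was the lowest, with 0.603 ± 0.0181 after baicalein and 0.639 ± 0.0259 in controls. GFPT1 stood at rank 10 of 33 after baicalein and at rank 21 in controls. With the length of the principal transcript in its place, a choice made after seeing the data, the ranks were 13 and 27. The lowest value of any member in any library, 5.69 CPM for ALG14 in baicalein 1, was above the floor of 3 counts (0.0549 to 0.0805 CPM), which covers counting error only.

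**Figure D4:**
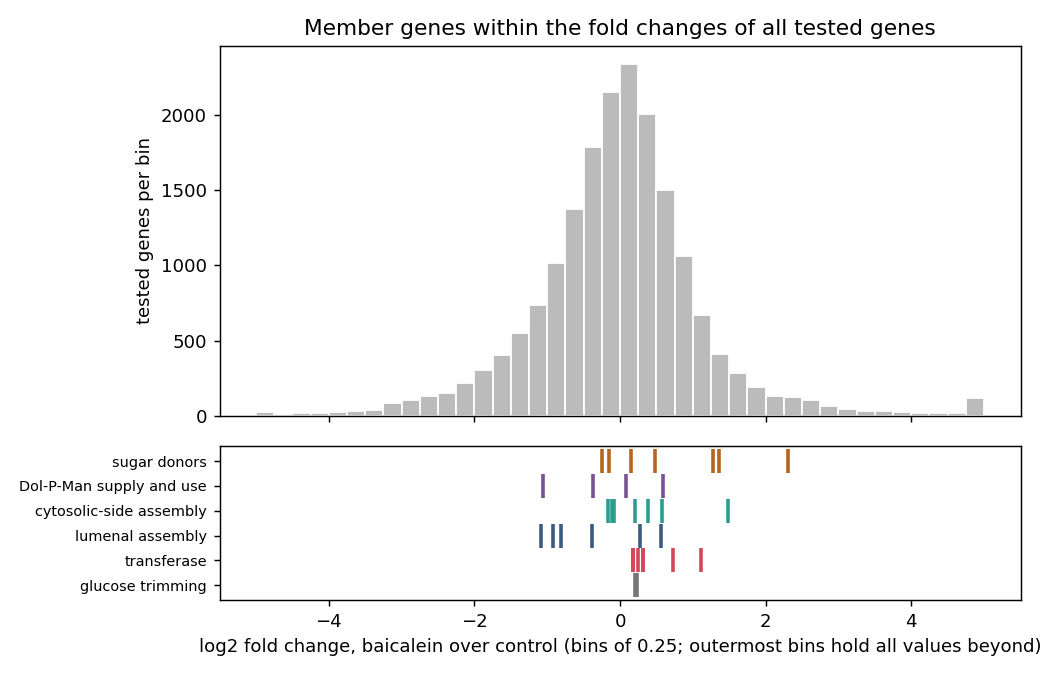
Distribution of log2 fold changes of baicalein over control over 18369 tested genes (top, bins of 0.25) and the 33 members by step (bottom, 1 tick per gene). The members lie between -1.08 and 2.31, and GFPT1, the rightmost, is above 97.0% of tested genes.

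In the companion list of 47 other pathway genes, all of which were tested, 24 rose, 19 fell and 4 did not pass, with a median log2 fold change of 0.12. These were 51.1% higher and 40.4% lower, against 37.4% and 37.6% of all tested genes. At least 2-fold changes were called for 4 upward and 3 downward, against 12.2% and 15.2% of all tested genes. Among 13 genes of hexosamine and nucleotide sugar metabolism 10 rose and 3 fell. RENBP, a GlcNAc 2-epimerase that binds renin, had 12.7 and 12.7 CPM in baicalein 1 and 2, against 1.19 and 1.62 CPM in control 1 and 2, a 9.06-fold rise (log2 fold change 3.18, SE 0.13, adjusted p = 3.47e-16). GNPDA1, a deaminase that runs opposite to GFPT1 and returns glucosamine 6-phosphate to fructose 6-phosphate, had 167 and 173 CPM after baicalein and 39.2 and 36.5 CPM in controls, a 4.49-fold rise (SE 0.05 on the log2 scale, adjusted p = 8.29e-21). UAP1L1, a paralog of UAP1, rose 2.87-fold, with 222 and 214 CPM in baicalein libraries and 73.9 and 78.0 CPM in control libraries. The salvage genes NAGK, a GlcNAc kinase, and AMDHD2, a deacetylase that also runs against synthesis, rose 1.78-fold and 1.81-fold. For AMDHD2, 31.7% of exon bases overlap those of CEMP1 on the opposite strand, at 1.61 CPM after baicalein and 0 counts in both controls.

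GFPT2, the second isozyme of the entry step, was scarce and went opposite to GFPT1. It had 73 and 37 counts in baicalein libraries and 115 and 134 counts in control libraries, 2.22-fold lower by the fit (log2 fold change -1.15, SE 0.19, adjusted p = 1.04e-05). The GFPT1 to GFPT2 count ratio was 239 and 329 after baicalein and 27.0 and 22.5 in controls. GMPPB, which makes the mannose donor GDP-mannose, and GMPPA, its related regulatory partner, rose by log2 fold changes of 0.93 and 0.74. Of GMPPB's exon bases 42.3% are shared with AMIGO3 on the same strand, which had 6.70 CPM after baicalein and 2.18 CPM in controls.

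UDP-GlcNAc is also used for O-GlcNAc, a single sugar on nuclear and cytosolic proteins. OGT, the enzyme that adds it, had 460 and 454 CPM in baicalein 1 and 2, against 136 and 139.6 CPM in control 1 and 2, a 3.31-fold rise (log2 fold change 1.73, SE 0.04, adjusted p = 1.12e-19). OGA, which removes it, rose 1.79-fold, to 380.2 ± 8.88 CPM after baicalein, against 212 ± 3.01 CPM in controls.

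Among 6 genes of dolichol and carrier supply 2 rose, 3 fell and 1 did not pass. The shares among all tested genes were 37.4% higher and 37.6% lower. DHDDS and NUS1, the subunits of the enzyme that builds the dolichol chain, rose 1.52-fold and 1.75-fold. DOLK, the dolichol kinase, had a log2 fold change of -0.18 (SE 0.05), a call lost without baicalein 1 (adjusted p = 0.121). SRD5A3, the polyprenol pathway reductase gene, had a log2 fold change of -0.17 (adjusted p = 0.0433), a call lost in DESeq2 (0.173), with a stricter filter on low counts (0.055) and without control 1 (0.191), baicalein 1 (0.13) or baicalein 2 (0.213).

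Genes acting after transfer were mixed, while 37.4% of all tested genes were called higher and 37.6% lower. Of 7 genes of trimming and glycoprotein folding control, 4 rose and 3 fell; UGGT1, the sensor that adds glucose back to misfolded glycoproteins, rose 1.28-fold, to 135 ± 1.37 CPM after baicalein, against 105 ± 1.38 CPM in controls. Of 11 Golgi genes 3 rose, 6 fell and 2 did not pass. B4GALT1, a galactosyltransferase, fell to 280.1 and 282 CPM in baicalein libraries, against 460.1 and 459 CPM in control libraries. The branching enzymes MGAT4A and MGAT5 fell by 0.74 and 0.66 on the log2 scale, whereas MGAT2, which starts the second antenna, rose 1.54-fold; 91.9% of its exon bases overlap the antisense gene AL139099.1, at 4.18 CPM after baicalein and 2.32 CPM in controls. MGAT3, which adds the bisecting sugar, was near the floor, with 8 and 3 counts in baicalein libraries and 29 and 28 counts in control libraries (log2 fold change -2.32, SE 0.43, adjusted p = 4.72e-05). The sialyltransferase gene ST6GAL1 rose 1.53-fold and the mannosidase gene MAN2A1 1.69-fold, and MAN2A2, its paralog, was 1.53-fold lower. Of 2 genes of glycan removal, ENGASE, a cytosolic endoglycosidase, fell to 82.5 ± 3.28 CPM after baicalein, against 155 ± 10.2 CPM in controls, and NGLY1, the peptide N-glycanase, did not pass (log2 fold change 0.06, adjusted p = 0.275).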

How the data were processed

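The authors deposited whole-number counts per Ensembl gene in 1 table, without scaling, for 4 libraries (0 columns of other samples). Per the submitters' processing notes the tools were cutadapt 2.3, FastQC 0.11.8, STAR 2.7.8a, RSEM 1.3.3 and DESeq2 1.34 with GRCh38; their roles, the annotation release and the strand setting are not stated. If RSEM estimates were rounded, genes that share reads carry assignment error. The smallest row total was 10.

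Symbols came from a names table (17419 of 20515 identifiers) and coordinates, exon lengths and overlaps from GENCODE 29 on GRCh38, which may not be the authors' release. Counts were fitted with edgeR 4.0.16 in R 4.3.3 (robust quasi-likelihood, TMM, filterByExpr with a minimum count of 10 and total of 15, no covariates), with Benjamini-Hochberg adjustment over 18369 genes. The standard error is the log2 fold change divided by the square root of F. Replicates differed beyond sampling noise (mean chi-square per gene 2.43 in baicalein and 9.61 in control). Alternatives were 3 scalings, 2 filters, DESeq2 1.42.0, limma-voom (limma 3.58.1), a test against a 1.5-fold change, a replicate block and leaving out each library. Members with an adjusted p under 0.05 and a 2-fold change are given by library, and companion genes of that size by value; companion genes named beyond that were chosen after their values were seen. The members and lists were chosen with earlier results of these data known. Some companion genes are counted but not reported here by name.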

Additional observations from a re-analysis of the deposited data

How the results depend on the processing

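Tested against a 1.5-fold change, calls came to 6 higher and 4 lower for members, 11 and 6 for companion genes and, over all genes, to 3090 genes called higher and 3581 genes called lower; this follows from the stricter null hypothesis. Library totals alone moved the median log2 fold change of all genes by -0.10 and that of the members to 0.10, with 17 members higher and 10 lower. Values without a call changed sign with library totals alone in DPM3 (-0.0271), DOLPP1 (-0.0932), MGAT1 (-0.0487), FUT8 (-0.00914) and NGLY1 (-0.0405), and for DOLPP1 also with upper quartile scaling (-0.0219); with 1 library left out, the log2 fold change of DOLPP1 ranged from -0.0566 to 0.0880. With 1 library left out, members called higher ranged from 19 to 20 and lower from 7 to 10; this fit takes the spread of the lone library from the other group. The 5 members at least 2-fold higher and 2 lower kept those counts in every setting run, except 3 lower with library totals alone. GFPT1 ranked 13 and 27 by principal transcript length, against 10 and 21, after baicalein and in controls. Deviations of same-numbered libraries correlated at 0.0136, so the numbers were not taken as pairs; with the replicate number as a block 20 members were higher and 9 lower. Depth limits mainly MGAT3 and GFPT2.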

Other observations

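Lists of 2 neighbouring routes were added after seeing the data. Of 8 genes for other users of dolichol phosphate mannose, 2 rose, 4 fell and 2 did not pass (edgeR, adjusted over all tested genes). Among all tested genes 37.4% were called higher and 37.6% lower, 75.0% in all. PIGB, a mannosyltransferase of glycosylphosphatidylinositol anchors, was at 5.40 ± 0.350 CPM in baicalein libraries and 13.3 ± 0.316 CPM in control libraries, 2.45-fold lower (adjusted p = 1.5e-11, n = 2 libraries a group). DPY19L1, a C-mannosyltransferase, was 2.23-fold lower, while its paralog DPY19L3 rose 1.47-fold.

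Of 6 sialic acid genes 1 rose, 2 fell and 3 did not pass, against 37.4% higher and 37.6% lower among all tested genes. GNE, the entry enzyme that draws on UDP-GlcNAc, rose 2.73-fold, to 40.4 ± 1.01 CPM in baicalein libraries, against 14.8 ± 0.138 CPM in control libraries. CMAS, which activates sialic acid, and SLC35A1, the Golgi transporter of the activated form, were 1.87-fold and 1.98-fold lower.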
